A study of Mus musculus with 12 samples.

Results

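Transcripts of 7 ion channel genes were followed in the left ventricle of mice after myocardial infarction with and without extra Irx3. The genes were Cacna1g and Cacna1h, which encode the pore subunits of T-type calcium channels, Cacna1d, which encodes the pore of the L-type channel Cav1.3, Hcn2 and Hcn4, which encode pacemaker channels, and Kcnj3 and Kcnj5, which encode the subunits of a potassium channel opened by G proteins. They were taken by gene symbol as 7 of the 56748 rows of the count table, and all 7 passed the filter on low counts that left 15742 genes for testing. Cacna1d is an L-type gene and the Kcnj pair are potassium channel genes, so the set is wider than T-type and pacemaker channels in the strict sense.

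T-type channels open at more negative voltages than L-type channels, close quickly, and let calcium into cells near the resting potential. Hyperpolarization-activated cyclic nucleotide-gated (HCN) channels carry the pacemaker current, which drives the slow depolarization between beats in the sinoatrial node. Kcnj3 and Kcnj5 encode GIRK1 and GIRK4, which assemble into the channel that acetylcholine opens through muscarinic receptors to slow the heart, and which is best known from atrial and nodal muscle. In the working muscle of the adult ventricle T-type and pacemaker channels are known to be scarce, and in rodents several of these genes belong to a fetal program that can return in the failing heart.

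Libraries fell into 3 groups of 4. All came from wild type C57BL/6J mice kept free of specified pathogens and injected in the tail vein with adeno-associated virus of serotype 9 (AAV9), which reaches heart muscle well. The first group carried the vector for Irx3, a homeobox transcription factor gene of the Iroquois family, and had infarction by ligation of the left anterior descending coronary artery. The second carried the control vector with the same infarction, and the third carried the control vector with sham surgery. Left ventricle was taken 14 days after surgery. The labels give neither the promoter of the Irx3 vector nor the age or sex of the animals, sham surgery with the Irx3 vector was not analysed here, and the labels do not say that the 4 libraries of a group are 4 separate animals, so p-values measure the spread between these libraries.

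Irx3 itself had 314, 513, 285 and 462 CPM (the normalised read count, scaled to library size) in the Irx3-vector libraries, 30.5, 27.3, 16.8 and 17.6 CPM in control-vector infarcted libraries, and 25.9, 25.6, 25.9 and 20.5 CPM in sham libraries. Every library thus fitted its label of vector, and these values do not tell infarction from sham surgery. Libraries held 13352604 to 19236721 counts. The labels name the cells as cardiomyocytes, but the summed level of 6 fibroblast markers was 3039 to 19690 CPM with Irx3 vector, 9933 to 27110 CPM with control vector and infarction, and 492 to 634 CPM after sham surgery, so the tissue is read here as whole ventricle. The summed level of 8 sarcomere genes was 17470 to 28360 CPM with Irx3 vector, 17370 to 35250 CPM with control vector and infarction, and 47730 to 55130 CPM after sham surgery. In whole tissue, fewer cells of a type and less RNA per cell cannot be told apart. Each library's log2 CPM, as the deviation from each gene's mean over the 12 libraries, also followed the GC content of transcripts. Slopes were -0.47 to -0.65 per 10 percentage points of GC in Irx3-vector libraries and 0.02 to 0.61 in the other libraries. They set the libraries against each other and are not absolute. Values corrected for GC content therefore stand beside most results that involve the Irx3 vector. Transcript GC content was 65.2% for Hcn2, 60.2% for Cacna1h, 58.1% for Cacna1g, 58.0% for Hcn4, 52.0% for Kcnj5, 49.0% for Cacna1d and 43.9% for Kcnj3.

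The 250 bases before the transcription start are shown for Kcnj3, Kcnj5 and Hcn4, because these had the largest falls after infarction among the 7 genes. RefSeq sequence on mouse build GRCm38.p6 held windows for 5 of the 7 genes, and those of Cacna1g and Cacna1h were not used here. Capitals mark GC boxes (GGGCGG, both strands), the letters that Sp-family factors are known to bind. The windows lie at chr2:55435720-55435969 on the plus strand for Kcnj3, chr9:32344345-32344594 on the minus strand for Kcnj5 and chr9:58822699-58822948 on the plus strand for Hcn4, and each reads 5′ to 3′ toward the start.
Kcnj3: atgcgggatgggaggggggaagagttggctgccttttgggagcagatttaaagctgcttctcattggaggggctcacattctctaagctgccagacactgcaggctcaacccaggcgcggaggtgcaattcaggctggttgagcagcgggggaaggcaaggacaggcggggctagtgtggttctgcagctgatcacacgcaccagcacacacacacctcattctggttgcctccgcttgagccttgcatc
Kcnj5: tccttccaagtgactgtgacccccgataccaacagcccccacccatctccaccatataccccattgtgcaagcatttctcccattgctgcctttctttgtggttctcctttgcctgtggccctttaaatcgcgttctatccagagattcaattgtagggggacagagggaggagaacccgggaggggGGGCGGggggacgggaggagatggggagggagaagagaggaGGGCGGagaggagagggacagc
Hcn4: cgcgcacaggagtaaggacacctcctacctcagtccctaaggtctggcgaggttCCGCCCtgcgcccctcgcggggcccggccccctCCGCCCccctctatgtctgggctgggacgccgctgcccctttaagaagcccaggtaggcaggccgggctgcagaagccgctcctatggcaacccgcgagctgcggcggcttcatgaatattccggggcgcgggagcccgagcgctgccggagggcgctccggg

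GC boxes started at -63 and -22 in Kcnj5 and at -196 and -163 in Hcn4, counted from the start site, and Kcnj3 had none. The Hcn4 window held 25 CG pairs and was 71.2% GC. The Kcnj3 and Kcnj5 windows held 7 CG pairs each and were 58.4% and 58.0% GC. GC boxes were in 4 of the 6 windows of these genes (Cacna1d has 2 starts) and in 32.7% of 32851 windows of the same length. Other motifs were searched as well. E-boxes (CANNTG) were in 4 of the 6 against 66.2% of all windows, TATA boxes (TATAAA) in 1 against 12.4%, and GATAA in 1 against 22.6%. The Iroquois motif ACANNTGT, searched on both strands, was in 6.31% of all windows and in none of the 6, which says only that these letters are not in these windows.

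After infarction with control vector, set against sham surgery, 4 of the 7 genes fell, 1 rose and 2 did not pass the test. Kcnj3, Hcn4 and Kcnj5 fell most, by 5.80-fold, 3.67-fold and 2.95-fold, Cacna1g fell less, and Cacna1d rose. The call was an edgeR adjusted p under 0.05, which 48.7% of all tested genes met in this comparison, 26.3% as higher and 22.4% as lower. The groups did not overlap in 6 of the 7 genes, against 47.3% of all genes. The median log2 fold change of the 7 was -0.53, and that of all tested genes was 0.01. After GC correction again 1 was higher and 4 were lower, against 53.1% of all genes called, 29.9% as higher and 23.2% as lower.

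With Irx3 vector after infarction, set against control vector after infarction, 5 of the 7 genes rose, none fell and 2 did not pass the test. Both T-type genes and Kcnj5 rose with no overlap between groups, and Kcnj3 and Hcn4 rose with overlap. In this comparison 49.3% of all tested genes were called, 25.2% as higher and 24.1% as lower, and 41.0% did not overlap, against 3 of the 7. The median log2 fold change of the 7 was 1.22 against 0.00 for all tested genes. After GC correction 5 were again called higher and none lower, but Hcn2 was among them and Kcnj3 was not, their median was 1.53, and 27.2% of all genes were called, 14.1% as higher and 13.2% as lower.

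Both comparisons use the same 4 control-vector infarcted libraries, so a library that is low there lowers one and raises the other. The third comparison, Irx3 vector with infarction against sham surgery, has none of them on either side. They still enter its filter, its scaling and its estimate of the spread, which come from all 12 libraries. There 3 of the 7 genes were higher, 2 were lower and 2 did not pass, against 62.9% of all genes called, 35.2% as higher and 27.7% as lower. The groups did not overlap in 4 of the 7, against 60.8% of all genes, and the medians were -0.19 and 0.12. After GC correction 3 were higher and 1 was lower, with 54.5% of all genes called, 32.1% as higher and 22.4% as lower.

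**Figure D1:**
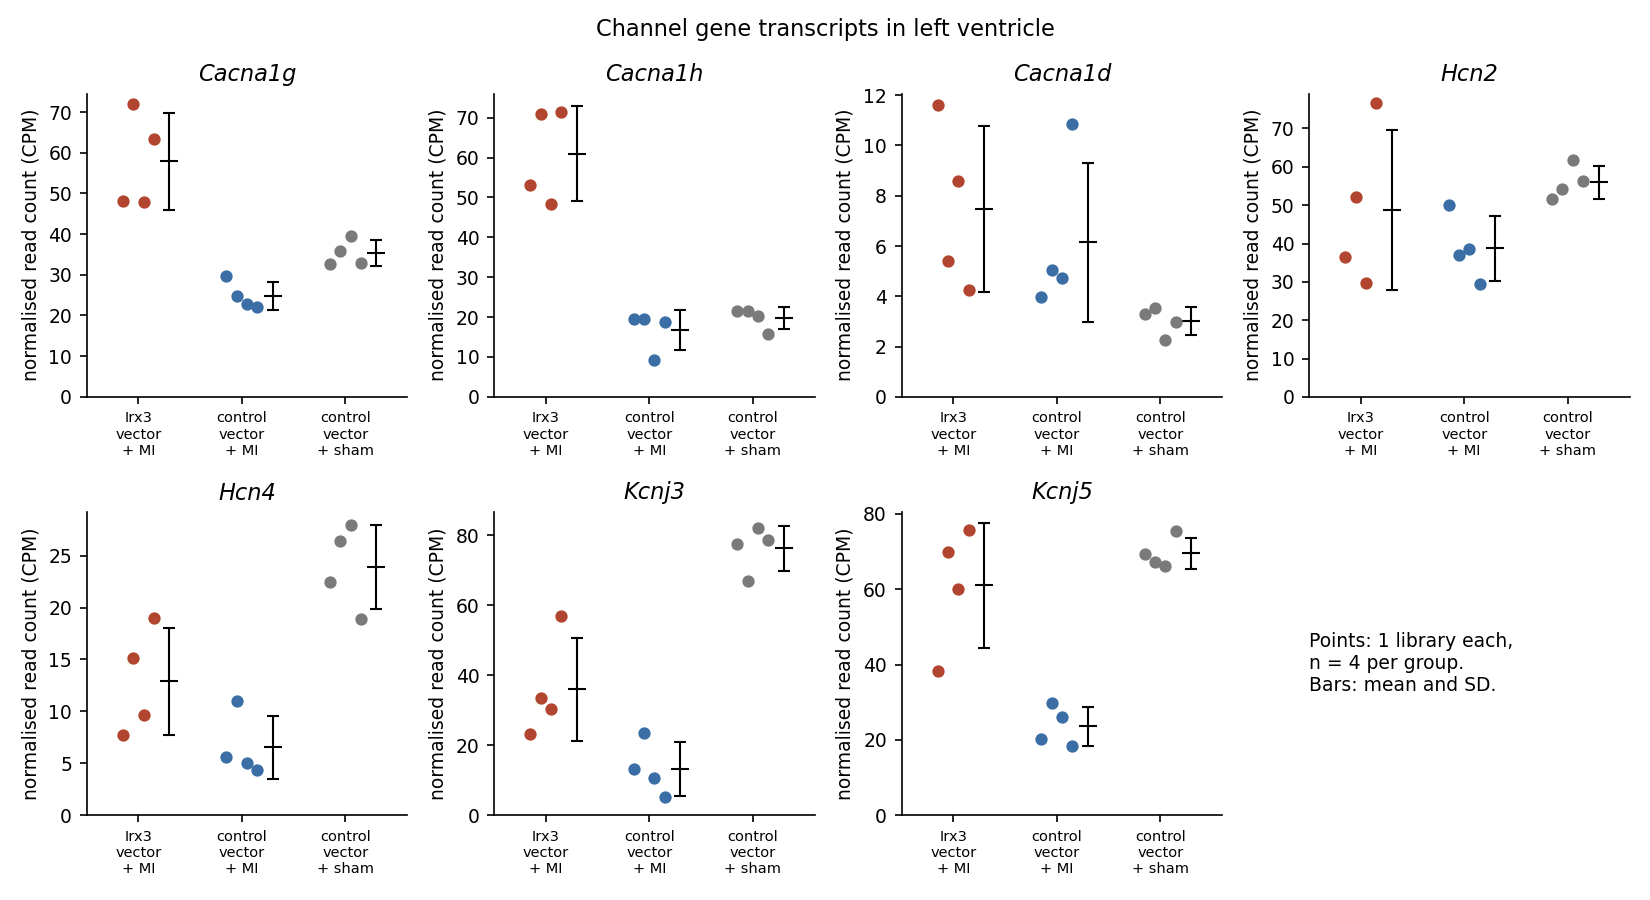
Normalised read count (CPM, linear axis from 0) of each gene in 4 libraries per group, with the mean and SD as bars beside the points. Cacna1g and Cacna1h are highest with Irx3 vector, Kcnj3 and Hcn4 are highest on average after sham surgery, and Kcnj5 lies at 38.2 to 75.8 CPM with Irx3 vector, 18.3 to 29.7 CPM with control vector and infarction, and 66.2 to 75.3 CPM after sham surgery.

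Cacna1g encodes Cav3.1, the T-type channel of the adult sinoatrial and atrioventricular nodes. It had 48.2, 72.0, 48.0 and 63.5 CPM with Irx3 vector, 29.6, 24.8, 22.8 and 22.01 CPM with control vector and infarction, and 32.7, 35.9, 39.5 and 32.9 CPM after sham surgery. The 3 groups did not overlap at all, with Irx3 vector on top and the infarcted control-vector libraries at the bottom. Means were 57.9 ± 11.9, 24.8 ± 3.43 and 35.2 ± 3.19 CPM (SD, n = 4 each).

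With Irx3 vector Cacna1g rose over control vector after infarction by 1.22 on the log2 scale (SE 0.15, edgeR adjusted p = 7.23e-05), and the GC-corrected value was 1.82. Infarction with control vector lowered it by 0.51 relative to sham on the log2 scale (SE 0.15, edgeR adjusted p = 0.0141). Irx3 vector with infarction stood above sham by 0.72 (SE 0.15, edgeR adjusted p = 0.00111; GC-corrected 1.29). These 3 calls held under all 23 alternatives.

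Cacna1h encodes Cav3.2, the T-type channel of the fetal ventricle, known in rodents to return in hypertrophy. It had 53.0, 70.9, 48.4 and 71.4 CPM with Irx3 vector, 19.5, 19.6, 9.17 and 18.7 CPM with control vector and infarction, and 21.4, 21.6, 20.3 and 15.7 CPM after sham surgery. The lowest Irx3-vector library was above every other library by more than 2-fold, while both control-vector groups overlapped. Means were 60.9 ± 11.9, 16.8 ± 5.08 and 19.8 ± 2.75 CPM.

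The rise of Cacna1h with Irx3 vector over control vector after infarction was 1.86 on the log2 scale, a 3.63-fold level (SE 0.23, edgeR adjusted p = 6.26e-05; GC-corrected 2.51), the largest of the 7 genes in that comparison. Over sham it was 1.62 (SE 0.22, edgeR adjusted p = 5.04e-05; GC-corrected 2.21). Infarction with control vector gave -0.24 relative to sham (SE 0.22, edgeR adjusted p = 0.398), which did not pass the test. The 2 calls held under all 23 alternatives. The 9.17 CPM of replicate 3 of the infarcted control-vector group lay apart from the 18.7 to 19.6 CPM of the other 3, and without it the log2 fold change of Irx3 vector over control vector was 1.66.

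Cacna1d encodes Cav1.3, an L-type channel that opens at more negative voltages than the main cardiac L-type channel and is needed for sinoatrial pacemaking. It had 11.6, 5.41, 8.61 and 4.26 CPM with Irx3 vector, 3.96, 5.06, 4.73 and 10.8 CPM with control vector and infarction, and 3.30, 3.52, 2.25 and 2.99 CPM after sham surgery. Both infarcted groups were above every sham library and overlapped each other widely, and 1 library of the control-vector group stood far above its other 3. It was the least counted of the 7 genes, with 33 to 235 reads a library.

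After infarction with control vector Cacna1d was higher than in sham by 1.03 on the log2 scale (SE 0.37, edgeR adjusted p = 0.0324). This call rests on few libraries. Without replicate 4 of the infarcted control-vector group the log2 fold change was 0.54 (edgeR adjusted p = 0.185), and the call also ended without replicate 1, 3 or 4 of sham or without replicate 3 of the Irx3-vector group, with edgeR adjusted p from 0.0516 to 0.0884. Without replicate 4 of both infarcted groups it was 0.60 (edgeR adjusted p = 0.0762). Irx3 vector with infarction was above sham by 1.31 (SE 0.37, edgeR adjusted p = 0.00698), a call that held under all 23 alternatives. The difference of Irx3 vector from control vector after infarction was 0.28 (SE 0.35, edgeR adjusted p = 0.522), and without replicate 4 of both infarcted groups it was 0.89 (edgeR adjusted p = 0.0148).

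In the libraries with most Cacna1d the fibroblast markers were also highest. Their summed level was 19690, 5498, 10260 and 3039 CPM in replicates 1 to 4 with Irx3 vector, against 12960, 9933, 13680 and 27110 CPM in replicates 1 to 4 with control vector and infarction. Replicate 1 with Irx3 vector and replicate 4 with control vector were highest of their groups in both measures. The part of fibroblasts in the level of Cacna1d was not tested. Cacna1d shares 589 exon bases with Chdh, which lies on the other strand, in the GENCODE M21 annotation. Chdh had 1 to 9 counts with Irx3 vector, 7, 8, 14 and 54 counts with control vector and infarction, and 0 to 6 counts after sham surgery. Its highest library was the one highest in Cacna1d in that group, the strand setting of the counting is not stated, and reads of the 2 genes cannot be told apart there.

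Hcn2 encodes the pacemaker channel subunit that is most abundant in adult ventricular muscle. It had 36.5, 52.1, 29.8 and 76.7 CPM with Irx3 vector, 50.0, 37.1, 38.7 and 29.4 CPM with control vector and infarction, and 51.5, 54.1, 61.8 and 56.4 CPM after sham surgery. The Irx3-vector libraries overlapped both other groups, and every infarcted control-vector library was below every sham library. No comparison passed the test.

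For Hcn2 the log2 fold change was 0.33 with Irx3 vector over control vector after infarction (SE 0.25, edgeR adjusted p = 0.285), -0.53 with infarction over sham (SE 0.25, edgeR adjusted p = 0.0905) and -0.20 with Irx3 vector and infarction over sham (SE 0.24, edgeR adjusted p = 0.491). Hcn2 has transcripts richer in GC than 99.6% of tested genes, and GC-corrected the first was 0.88 (edgeR adjusted p = 0.0295). The second passed without replicate 1 of the infarcted control-vector group at -0.73 (edgeR adjusted p = 0.0355), without replicate 3 or 4 of the Irx3-vector group (edgeR adjusted p = 0.0289 and 0.0285), and when only the control-vector and sham libraries entered the fit (edgeR adjusted p = 0.0173). The third was 0.25 after GC correction (edgeR adjusted p = 0.448), so its sign depends on the scaling, and it passed as lower, at -0.51, without the Irx3-vector library at 76.7 CPM (edgeR adjusted p = 0.0401).

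Hcn4 encodes the main pacemaker channel subunit of the sinoatrial node. It had 7.70, 15.2, 9.70 and 19.0 CPM with Irx3 vector, 5.66, 11.04, 5.07 and 4.39 CPM with control vector and infarction, and 22.5, 26.4, 27.9 and 18.9 CPM after sham surgery. Sham libraries were high, the infarcted control-vector libraries were low except for replicate 2, and the Irx3-vector libraries lay between and touched both. Means were 12.9 ± 5.16, 6.54 ± 3.04 and 23.9 ± 4.05 CPM.

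Infarction with control vector lowered Hcn4 by 1.87 relative to sham on the log2 scale, a 3.67-fold lower level (SE 0.32, edgeR adjusted p = 0.000468), and this held under all 23 alternatives. With Irx3 vector it rose by 0.98 over control vector after infarction (SE 0.32, edgeR adjusted p = 0.0208; GC-corrected 1.53, edgeR adjusted p = 0.00737). That call ended without replicate 4 of the Irx3-vector group at 0.73 (edgeR adjusted p = 0.0692), without replicate 1 or 3 of the infarcted control-vector group (edgeR adjusted p = 0.0533 and 0.0551), without replicate 4 of both groups at 0.59 (edgeR adjusted p = 0.137), and when only the 2 infarcted groups entered the fit (edgeR adjusted p = 0.0523). Irx3 vector with infarction was below sham by 0.90 (SE 0.31, edgeR adjusted p = 0.0218). GC-corrected that was -0.32 (edgeR adjusted p = 0.444), and the call also ended without replicate 3 of sham (edgeR adjusted p = 0.0578).

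Kcnj3 encodes GIRK1, which needs a partner subunit to reach the cell surface. It had 23.2, 33.4, 30.4 and 56.9 CPM with Irx3 vector, 13.2, 23.6, 10.7 and 5.22 CPM with control vector and infarction, and 77.3, 67.0, 82.0 and 78.6 CPM after sham surgery. Sham libraries were above all others, and the infarcted groups met only where replicate 1 with Irx3 vector fell just below replicate 2 with control vector. Means were 36.0 ± 14.6, 13.2 ± 7.71 and 76.2 ± 6.47 CPM.

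The fall of Kcnj3 after infarction with control vector, -2.54 relative to sham on the log2 scale and a 5.80-fold lower level, was the largest among the 7 genes (SE 0.37, edgeR adjusted p = 0.000181), and it held under all 23 alternatives. With Irx3 vector it rose by 1.45 over control vector after infarction (SE 0.36, edgeR adjusted p = 0.00511). Kcnj3 has the transcripts poorest in GC of the 7, and the GC-corrected value was 0.77 (edgeR adjusted p = 0.0817), which ends the call. Irx3 vector with infarction was below sham by 1.09 (SE 0.35, edgeR adjusted p = 0.016), and GC-corrected the difference was larger, -1.75 (edgeR adjusted p = 0.000525). With no filter on low counts this call ended at the same size (edgeR adjusted p = 0.075). In the GENCODE M21 annotation Kcnj3 shares 1621 exon bases with the antisense gene Gm26794, and without a stated strand setting reads of the 2 cannot be told apart.

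Kcnj5 encodes GIRK4, the partner of GIRK1 in the heart, which can also form channels by itself. It had 38.2, 69.96, 59.9 and 75.8 CPM with Irx3 vector, 20.3, 29.7, 26.0 and 18.3 CPM with control vector and infarction, and 69.2, 67.3, 66.2 and 75.3 CPM after sham surgery. Every infarcted control-vector library was below every other library. Among the Irx3-vector libraries, 2 lay within the range of sham or above it and 2 lay below it.

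Infarction with control vector lowered Kcnj5 by 1.56 relative to sham on the log2 scale (SE 0.20, edgeR adjusted p = 8.39e-05), and Irx3 vector raised it by 1.37 over control vector after infarction (SE 0.20, edgeR adjusted p = 0.000179; GC-corrected 1.55). Both calls held under all 23 alternatives. Irx3 vector with infarction differed from sham by -0.19 (SE 0.20, edgeR adjusted p = 0.414; GC-corrected 0.06), which did not pass.

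**Figure D2:**
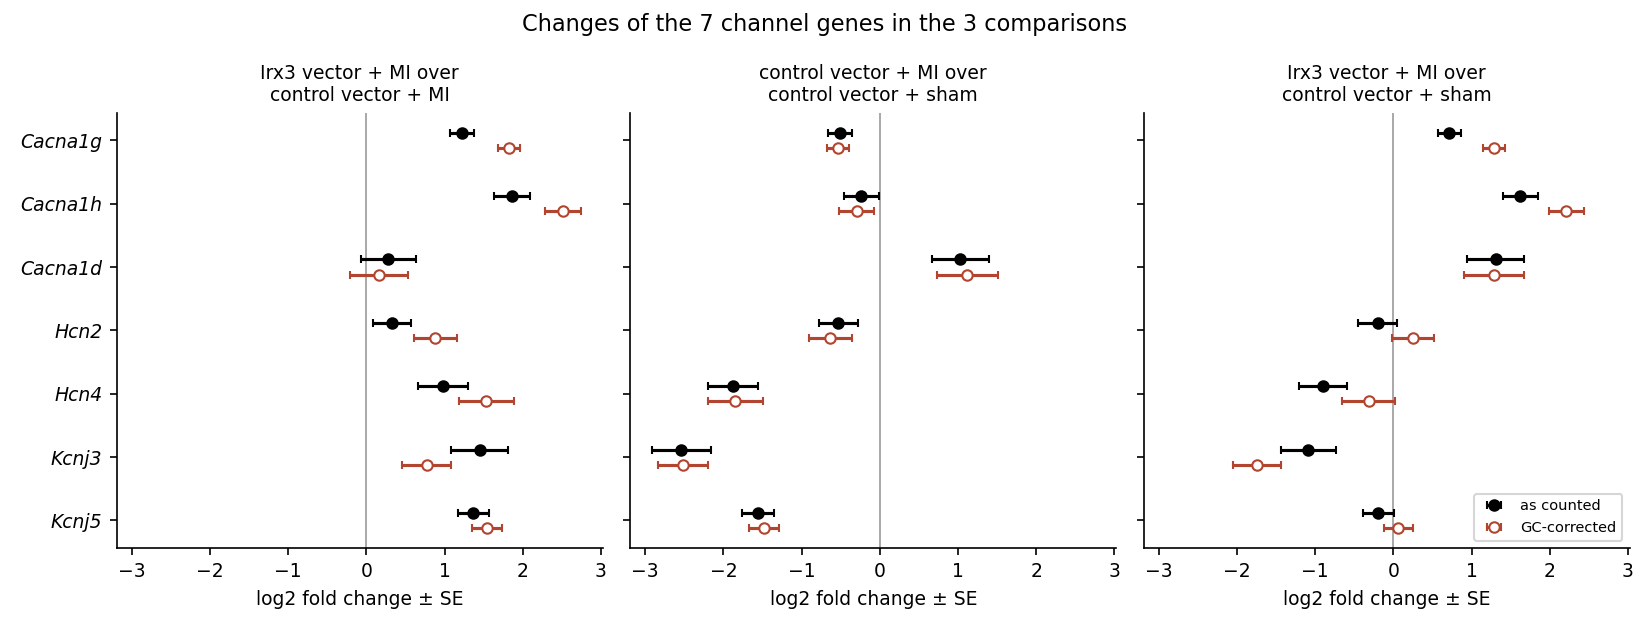
Log2 fold change with its SE for the 7 genes in each comparison, from edgeR over 12 libraries, as counted (filled) and after correction for transcript GC content (open). With Irx3 vector over control vector all 7 lie above 0, led by Cacna1h at 1.86, and with infarction over sham Kcnj3 is lowest at -2.54 and Cacna1d alone is above 0.

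Within a library the ratio of 2 genes of a family does not depend on library size. Cacna1h and Cacna1g were at near equal counts with Irx3 vector, and Cacna1g led in both control-vector groups. The ratio of Cacna1h to Cacna1g was 1.10, 0.985, 1.01 and 1.12 with Irx3 vector, 0.660, 0.791, 0.403 and 0.848 with control vector and infarction, and 0.655, 0.603, 0.513 and 0.478 after sham surgery. The Irx3-vector libraries were above all others and close to each other, with a mean log2 ratio of 0.07 ± 0.09 against -0.62 ± 0.48 with control vector and infarction and -0.84 ± 0.21 after sham surgery (SD, n = 4 each). The difference from control vector after infarction was 0.70 and that from sham was 0.92, each at the smallest p that a two-sided exact permutation test of 4 against 4 allows (p = 0.029, adjusted p = 0.043 over 9 ratio tests). Infarction with control vector differed from sham by 0.22 (exact permutation adjusted p = 0.42). After GC correction the first 2 differences were 0.74 and 0.93, still at exact permutation p = 0.029 but with adjusted p = 0.051 each. None of the 9 ratio tests then passed. For a test at the smallest p, the adjusted p depends on how many of the 9 tests reach it. After GC correction Hcn4 to Hcn2 with Irx3 vector over sham no longer did (exact permutation p = 0.057). A call lost at the smallest p therefore does not by itself show a smaller difference.

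Hcn4 was lower relative to Hcn2 in infarcted libraries than in sham libraries. The ratio of Hcn4 to Hcn2 was 0.211, 0.292, 0.326 and 0.248 with Irx3 vector, 0.114, 0.298, 0.132 and 0.150 with control vector and infarction, and 0.436, 0.488, 0.452 and 0.336 after sham surgery. Sham libraries were above all infarcted libraries, and the infarcted groups overlapped through replicate 2 with control vector. On the log2 scale infarction with control vector differed from sham by -1.40 and Irx3 vector with infarction differed from sham by -0.67 (exact permutation p = 0.029 and adjusted p = 0.043 each). Irx3 vector differed from control vector after infarction by 0.72 (exact permutation adjusted p = 0.15). After GC correction both calls against sham ended, at -1.31 with control vector (exact permutation p = 0.029, adjusted p = 0.051) and -0.55 with Irx3 vector (exact permutation p = 0.057, adjusted p = 0.073).

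Kcnj5 was higher relative to Kcnj3 in infarcted libraries than in sham libraries. The ratio of Kcnj5 to Kcnj3 was 1.65, 2.09, 1.97 and 1.33 with Irx3 vector, 1.54, 1.26, 2.43 and 3.49 with control vector and infarction, and 0.896, 1.00, 0.807 and 0.958 after sham surgery. Every infarcted library was above every sham library, and the infarcted groups overlapped. The log2 difference from sham was 1.14 for infarction with control vector and 0.93 for Irx3 vector with infarction (exact permutation adjusted p = 0.043 each). After GC correction these were 1.14 and 1.83, and neither passed (exact permutation p = 0.029 and adjusted p = 0.051 each). The difference of Irx3 vector from control vector was -0.22 (exact permutation adjusted p = 0.6), and GC-corrected it turned to 0.69 (exact permutation adjusted p = 0.073).

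**Figure D3:**
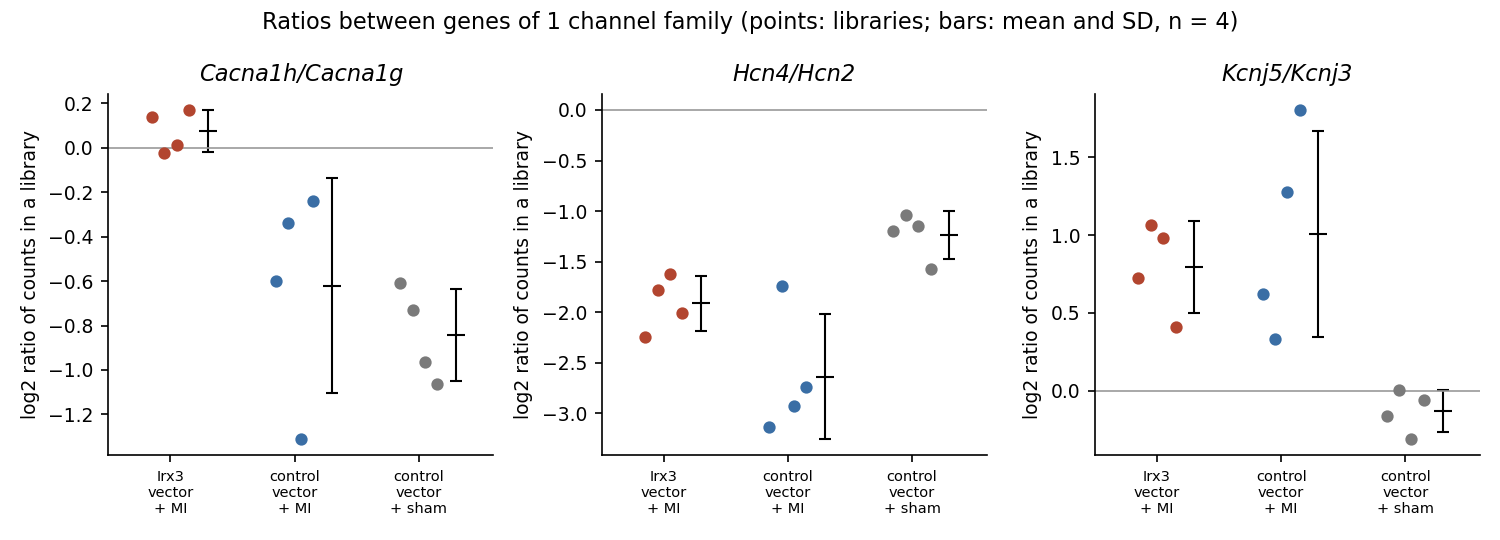
Log2 ratio of the counts of 2 genes of a family in each library (points, 4 a group) with the mean and SD (bars). The Cacna1h to Cacna1g ratio lies at -0.02 to 0.17 with Irx3 vector and at or below -0.24 in all other libraries, and the Kcnj5 to Kcnj3 ratio lies at or above 0.33 in all infarcted libraries.

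Sarcomere transcripts, which mark heart muscle cells, were lower after infarction in 7 of 8 genes with control vector and in 6 of 8 with Irx3 vector, and 4 of 8 fell with Irx3 vector relative to infarcted control-vector libraries (none after GC correction). Each channel gene was therefore also set against the mean log2 CPM of 8 sarcomere genes in its own library. On this scale 5 genes were higher with Irx3 vector than with control vector after infarction, with log2 differences of 1.46 for Cacna1g, 2.16 for Cacna1h, 1.23 for Hcn4, 1.81 for Kcnj3 and 1.60 for Kcnj5. Each had no overlap between groups and the smallest p of the two-sided exact permutation test (p = 0.029, adjusted p = 0.046 over 21 tests). GC-corrected these differences were 1.75, 2.48, 1.52, 0.76 and 1.46 in the same order (exact permutation adjusted p = 0.035 each), so that of Kcnj3 became the smallest. Cacna1d differed by 0.54 (exact permutation adjusted p = 0.51) and Hcn2 by 0.51 (exact permutation adjusted p = 0.13), and Hcn2 passed after GC correction at 0.76 (exact permutation adjusted p = 0.035).

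Relative to sarcomere transcripts, infarction with control vector lowered Hcn4 by 0.92 and Kcnj3 by 1.70 and raised Cacna1d by 1.93 against sham (exact permutation adjusted p = 0.046 each). The difference of Kcnj5 was -0.56 (exact permutation adjusted p = 0.11). Cacna1g, which had fallen in CPM, was at 0.51 above sham relative to sarcomere transcripts (exact permutation adjusted p = 0.086), so its direction after infarction depends on the scale. After GC correction that difference was 0.45 and passed (exact permutation adjusted p = 0.035). Irx3 vector with infarction was above sham in Cacna1g by 1.97, in Cacna1h by 2.88, Cacna1d by 2.48, Hcn2 by 0.98 and Kcnj5 by 1.04 (exact permutation adjusted p = 0.046 each), and Kcnj3 differed from sham by 0.11 (exact permutation adjusted p = 0.48) and Hcn4 by 0.31 (exact permutation adjusted p = 0.11). After GC correction Kcnj3 turned to -0.89 and Hcn4 was 0.53, and both passed (exact permutation adjusted p = 0.035 each). When 6 ventricular cardiomyocyte markers took the place of the sarcomere genes none of the 21 differences passed (smallest exact permutation adjusted p = 0.075). The difference of Irx3 vector from control vector was 0.71 for Cacna1g, 1.41 for Cacna1h and 1.07 for Kcnj3 (exact permutation p = 0.14, 0.057 and 0.029). Several differences, such as this one of Kcnj3 and that of Cacna1h over sham at 2.46, kept the smallest exact permutation p of 0.029. Their adjusted p depends on how many of the 21 tests reach it.

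**Figure D4:**
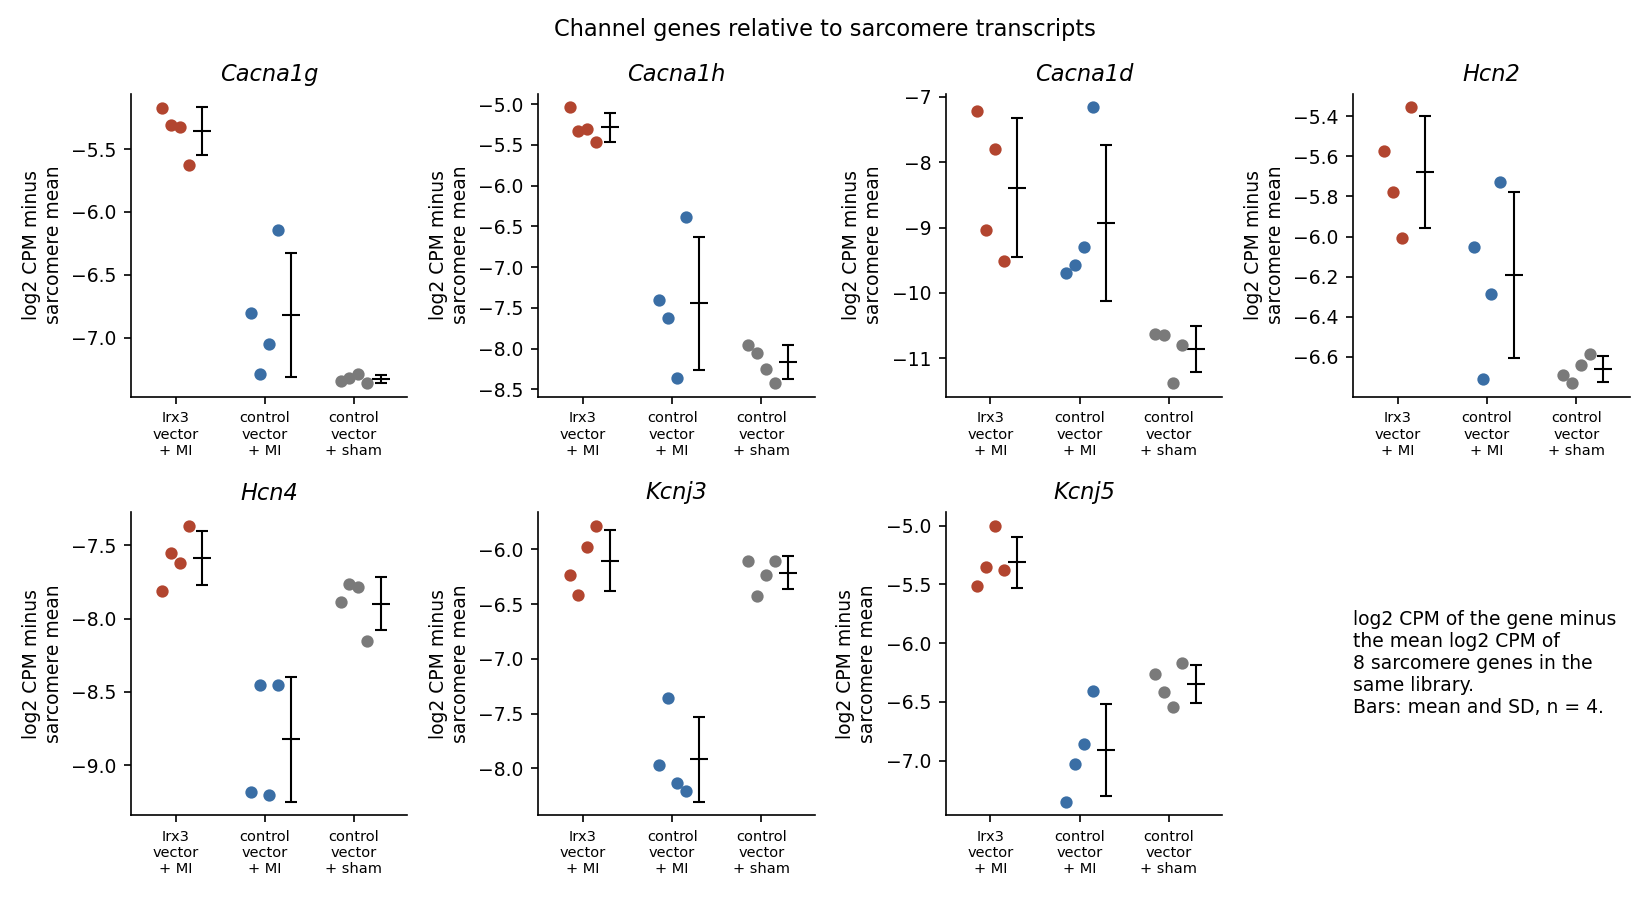
Log2 CPM of each gene minus the mean log2 CPM of 8 sarcomere genes in the same library, with the mean and SD of 4 libraries a group. The Irx3-vector libraries lie above the infarcted control-vector libraries without overlap in Cacna1g, Cacna1h, Hcn4, Kcnj3 and Kcnj5, and the axes start at different values.

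Per kilobase of exon, Hcn2 was the highest of the 7 genes in mean level in every group. It had 15.3 ± 6.52 CPM per kilobase with Irx3 vector, 12.1 ± 2.66 with control vector and infarction, and 17.5 ± 1.36 after sham surgery, and in the Irx3-vector group its libraries overlapped those of Kcnj5. With Irx3 vector the order of mean CPM per kilobase went on with Kcnj5 at 13.0, Kcnj3 at 6.90, Cacna1h at 6.24, Cacna1g at 5.71, Hcn4 at 2.11 and Cacna1d at 0.592. Neighbours overlapped down to Cacna1g, and Hcn4 and Cacna1d stood apart. With control vector and infarction the order was Kcnj5 at 5.03, Kcnj3 at 2.53, Cacna1g at 2.45, Cacna1h at 1.72, Hcn4 at 1.07 and Cacna1d at 0.487 CPM per kilobase. There Hcn2 stood apart from Kcnj5 and Cacna1g from Cacna1h, and the other neighbours overlapped. After sham surgery the order was Kcnj5 at 14.8, Kcnj3 at 14.6, Hcn4 at 3.91, Cacna1g at 3.48, Cacna1h at 2.02 and Cacna1d at 0.239 CPM per kilobase, with overlap only between Kcnj5 and Kcnj3 and between Hcn4 and Cacna1g. Cacna1h thus ranked above Cacna1g in mean level with Irx3 vector and below it in both control-vector groups.

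Single libraries moved several of the genes together. Among the Irx3-vector libraries replicate 4 was highest in Cacna1h, Hcn2, Hcn4, Kcnj3 and Kcnj5, and replicate 1 was lowest in Hcn4, Kcnj3 and Kcnj5. Among the infarcted control-vector libraries replicate 2 was highest in Cacna1h, Hcn4, Kcnj3 and Kcnj5, and replicate 4 was lowest in Cacna1g, Hcn2, Hcn4, Kcnj3 and Kcnj5. The same libraries stood out in mitochondrially encoded transcripts, which held 10.4%, 12.6%, 12.7% and 19.0% of counts in replicates 1 to 4 with Irx3 vector and 2.06%, 5.64%, 2.25% and 0.926% in replicates 1 to 4 with control vector and infarction. Replicate 4 with Irx3 vector and replicate 2 with control vector had both the highest mitochondrial share and the lowest fibroblast level of their groups. The part of these differences between libraries in the channel gene levels was not tested.

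Markers of atrial muscle, where several of these channels are abundant, were checked for atrial tissue in the samples. Myl7, the atrial regulatory myosin light chain, had 0 to 10 counts in every library, and Bmp10 had at most 3. Sln was at 0 except for 160 counts in replicate 1 and 1 count in replicate 3 of the infarcted control-vector group. The summed level of 8 atrial markers was 186 to 1065 CPM with Irx3 vector, 1564 to 3612 CPM with control vector and infarction, and 120 to 223 CPM after sham surgery. In the infarcted groups most of that sum was Nppa, the natriuretic peptide gene that ventricle also makes under load, at 594 ± 345 CPM with Irx3 vector, 2632 ± 883 CPM with control vector and infarction, and 37.4 ± 40.2 CPM after sham surgery. Kcna5, an atrial potassium channel gene, ran differently, at 18.6 ± 5.73 CPM with Irx3 vector, 43.0 ± 13.4 CPM with control vector and infarction, and 86.4 ± 6.52 CPM after sham surgery. A list of 8 conduction fibre markers summed to 43.7 to 65.8 CPM with Irx3 vector, 54.3 to 96.7 CPM with control vector and infarction, and 17.3 to 30.0 CPM after sham surgery. These markers moved in both directions with Irx3 vector over control vector. Etv1 rose by 0.86 (edgeR adjusted p = 0.00223; GC-corrected 0.61, edgeR adjusted p = 0.0313). Gja5 fell by 0.78 (edgeR adjusted p = 0.0229; GC-corrected -0.51, edgeR adjusted p = 0.136), and the other tested markers did not pass as counted. Smooth muscle and pericyte markers summed to 1119 to 1319 CPM with Irx3 vector, 870 to 1058 CPM with control vector and infarction, and 1144 to 1338 CPM after sham surgery, so in this sum every Irx3-vector library was above every infarcted control-vector library. The genes of the list did not move together. With Irx3 vector over control vector Rgs5 rose by 1.06, Cnn1 by 2.62 and Abcc9 by 1.19 on the log2 scale. Acta2 fell by 1.24 (edgeR adjusted p = 0.00705), and the other genes of the list did not pass. GC-corrected, Rgs5 was at 0.30 (edgeR adjusted p = 0.185). Macrophage markers summed to 671.6 to 1314 CPM with Irx3 vector, 909.2 to 2179 CPM with control vector and infarction, and 296.3 to 351.2 CPM after sham surgery. With Irx3 vector over control vector Ccr2 rose by 2.10 (edgeR adjusted p = 0.0011). C1qa fell by 0.84 and Csf1r by 0.77 (edgeR adjusted p = 0.0104 and 0.021), and the other macrophage markers did not pass. None of the macrophage markers passed after GC correction. The part of these cell types in the channel results was not tested.

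Genes that work with the 7 were taken from 6 lists. Their medians are read beside the all-gene medians of 0.00 with Irx3 vector over control vector and 0.01 with infarction over sham. Of 7 other calcium channel pore genes 3 were tested. With Irx3 vector over control vector 1 fell and 2 did not pass (median -0.67), and with infarction over sham 2 fell and 1 did not pass (median -0.78). Cacna1c, the main L-type channel of heart muscle, had 254 ± 53.3 CPM with Irx3 vector, 403 ± 81.7 CPM with control vector and infarction, and 692 ± 58.4 CPM after sham surgery. It fell by 0.78 with infarction relative to sham on the log2 scale (SE 0.19, edgeR adjusted p = 0.00436) and by 0.67 with Irx3 vector relative to control vector (SE 0.19, edgeR adjusted p = 0.0105; GC-corrected -0.34, edgeR adjusted p = 0.184). Cacna1s, the skeletal muscle L-type gene, fell by 1.81 with infarction (edgeR adjusted p = 0.0114). Cacna1a differed by 0.41 with Irx3 vector (edgeR adjusted p = 0.122; GC-corrected 0.89, edgeR adjusted p = 0.00483). The third T-type gene, Cacna1i, was not tested. It had 1 to 8 counts a library with Irx3 vector, 3 to 7 with control vector and infarction, and 1 to 4 after sham surgery.

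Of 12 calcium channel auxiliary genes 9 were tested. With Irx3 vector over control vector 2 rose, 3 fell and 4 did not pass (median -0.26), which became 1, 1 and 7 after GC correction, and with infarction over sham 3 rose, 3 fell and 3 did not pass (median 0.70). Cacna2d1, the main alpha2delta subunit gene of the heart, rose by 1.10 with Irx3 vector (SE 0.26, edgeR adjusted p = 0.00328), but GC-corrected the value was 0.27 (edgeR adjusted p = 0.278). Cacnb2, the main cardiac beta subunit gene, fell by 1.02 with infarction (SE 0.18, edgeR adjusted p = 0.000521), while Cacnb1, the skeletal muscle beta subunit gene, rose by 1.08 (SE 0.18, edgeR adjusted p = 0.000352) and Cacng7 by 1.54 (SE 0.24, edgeR adjusted p = 0.000251). Cacnb3 fell by 1.18 and Cacng7 by 0.71 with Irx3 vector, and neither passed after GC correction (edgeR adjusted p = 0.326 and 0.691).

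Of 6 HCN family and partner genes 4 were tested. None passed with Irx3 vector over control vector (median -0.15), and 1 passed with infarction over sham (median -0.54). That was Irag2, a regulator of HCN channels known also from lymphoid cells, which rose by 1.77 (SE 0.32, edgeR adjusted p = 0.000702) and has no GC-corrected value.

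Of 14 genes of GIRK signalling 12 were tested, and with Irx3 vector over control vector 3 rose, 4 fell and 5 did not pass (median -0.19), and with infarction over sham 6 rose, 2 fell and 4 did not pass (median 0.50). Chrm2, the muscarinic receptor upstream of GIRK channels, had 110 ± 23.6 CPM with Irx3 vector, 40.7 ± 10.4 CPM with control vector and infarction, and 68.3 ± 3.67 CPM after sham surgery. It fell by 0.75 with infarction (SE 0.19, edgeR adjusted p = 0.00535) and rose by 1.44 with Irx3 vector over control vector (SE 0.19, edgeR adjusted p = 9.55e-05; GC-corrected 0.76, edgeR adjusted p = 0.00232). Adora1, the adenosine receptor that opens the same channels, fell by 0.90 with infarction (SE 0.16, edgeR adjusted p = 0.000587) and differed by 0.11 with Irx3 vector (edgeR adjusted p = 0.575; GC-corrected 0.59, edgeR adjusted p = 0.0117). Gnao1, a G protein alpha subunit gene, rose by 1.02 with infarction (SE 0.17, edgeR adjusted p = 0.000446) and fell by 0.98 with Irx3 vector (SE 0.17, edgeR adjusted p = 0.000569; GC-corrected -0.74). Rgs10, whose product ends G protein signals, rose by 2.30 with infarction (SE 0.29, edgeR adjusted p = 7.61e-05).

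Of 8 transcription factor genes of the pacemaker program 7 were tested, and with Irx3 vector over control vector 1 rose, 1 fell and 5 did not pass (median -0.11), and with infarction over sham 2 rose, 2 fell and 3 did not pass (median -0.16). Tbx5, which is needed for the conduction system, fell by 1.95 with infarction (SE 0.16, edgeR adjusted p = 9.75e-06) and differed by 0.00 with Irx3 vector (SE 0.15, edgeR adjusted p = 0.99). Shox2, a sinoatrial node factor, rose by 3.93 with infarction (SE 0.52, edgeR adjusted p = 9.16e-05) but at 1.38 ± 0.468 CPM against 0.0834 ± 0.0281 CPM after sham surgery. Tbx18, known from the node and from epicardial and mural cells, rose by 1.71 (SE 0.23, edgeR adjusted p = 0.000104). Mef2c rose by 0.97 with Irx3 vector (SE 0.11, edgeR adjusted p = 4.9e-05; GC-corrected 0.42, edgeR adjusted p = 0.0231).

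All 10 genes of the REST repressor complex and its histone deacetylases were tested, a list chosen because REST is known in mice to hold down fetal channel genes such as Cacna1h, Hcn2 and Hcn4 in the ventricle. With Irx3 vector over control vector 5 rose, 3 fell and 2 did not pass (median 0.17), which became 2, 3 and 5 after GC correction, and with infarction over sham 1 rose, 1 fell and 8 did not pass (median 0.10). Rest had 30.6 ± 1.89 CPM with Irx3 vector, 21.6 ± 3.09 CPM with control vector and infarction, and 18.4 ± 1.60 CPM after sham surgery. It rose by 0.50 with Irx3 vector over control vector (SE 0.12, edgeR adjusted p = 0.00461; GC-corrected 0.17, edgeR adjusted p = 0.393) and by 0.74 with Irx3 vector and infarction over sham (SE 0.12, edgeR adjusted p = 0.000224; GC-corrected 0.48, edgeR adjusted p = 0.0127). Hdac4 fell by 1.22 with infarction (SE 0.13, edgeR adjusted p = 2.92e-05) and by 1.07 with Irx3 vector over control vector (SE 0.13, edgeR adjusted p = 6.48e-05; GC-corrected -0.77). Ehmt2 fell by 1.29 (SE 0.20, edgeR adjusted p = 0.000214; GC-corrected -0.60) and Hdac2 rose by 1.54 (SE 0.21, edgeR adjusted p = 0.000125; GC-corrected 0.48) with Irx3 vector.

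**Figure D5:**
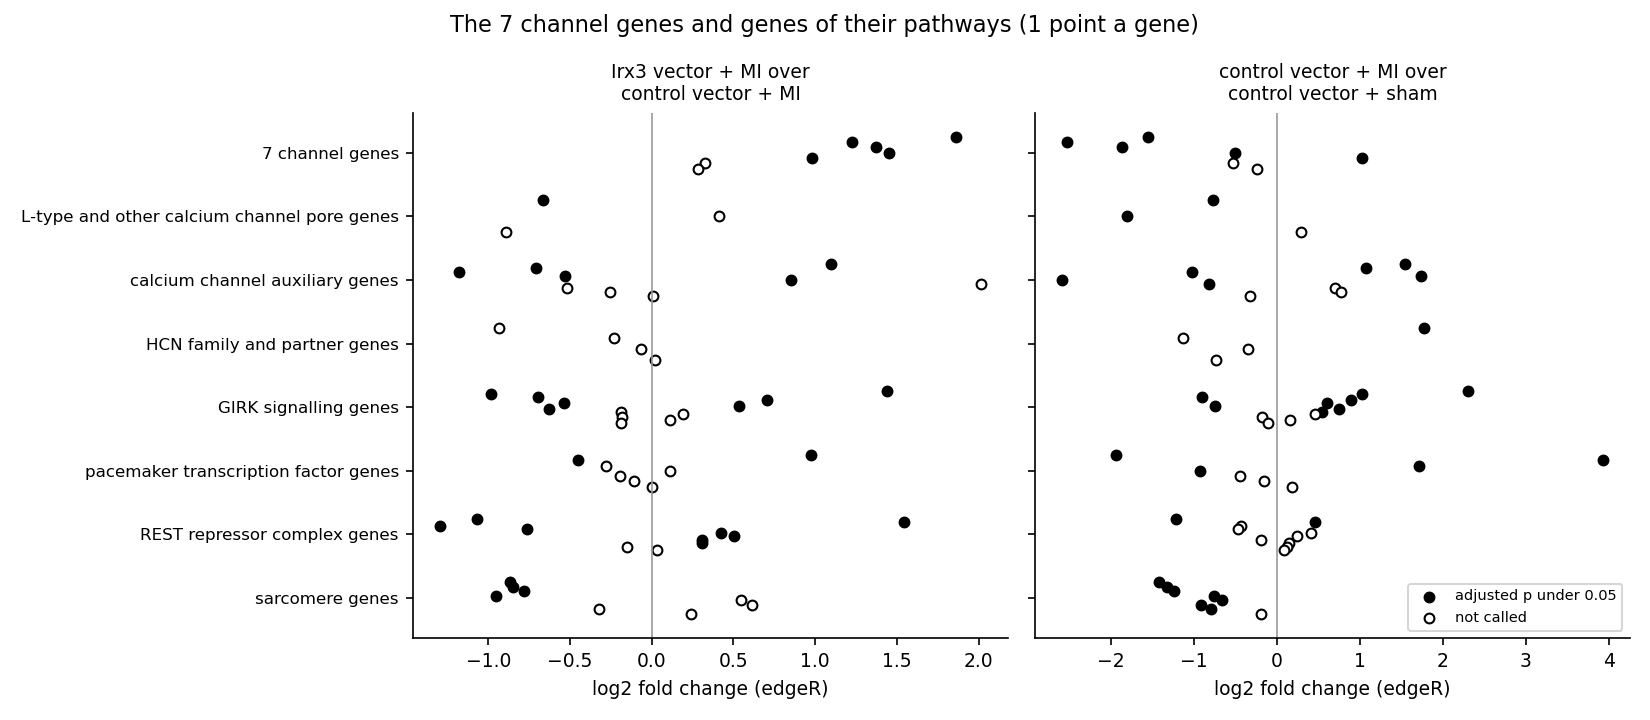
Log2 fold change (edgeR) of the 7 channel genes and of the tested genes of each pathway list, 1 point a gene, with filled points at an adjusted p under 0.05. With Irx3 vector over control vector (left) all 7 channel genes lie above 0, and the other lists hold points on both sides. The 2 panels have different axis ranges.

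The genes whose standardised log2 CPM over the 12 libraries differed least from each channel gene were found among 12448 tested genes whose log2 CPM averaged 1 or more, by the root mean square difference. For Cacna1h these were Magi3 at 0.196, Irx3 at 0.285 and Gsk3b at 0.302, and for Cacna1g they were Anp32a at 0.28, Gnas at 0.283 and Ppp2r5a at 0.302. For Kcnj3 they were Rprd1a at 0.0983, Zfp612 at 0.144 and Ppm1k at 0.146, and for Kcnj5 Serac1 at 0.191, Nckap5 at 0.208 and Mitf at 0.221. For Hcn4 they were Lonrf2 at 0.216, Grb14 at 0.22 and Adra1b at 0.228, for Hcn2 Fblim1 at 0.367, Prelid3b at 0.391 and Mrpl41 at 0.395, and for Cacna1d Cd33 at 0.29, Zfp275 at 0.309 and Spats2l at 0.315. Among the 7 genes themselves Hcn4 and Kcnj3 were closest at 0.279, then Kcnj3 and Kcnj5 at 0.397 and Cacna1g and Cacna1h at 0.431. These values describe the 12 libraries, which share their 3 groups and their GC slopes.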

How the data were processed

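Polyadenylated RNA of left ventricle was sequenced in 12 libraries, 4 a group. The authors deposited unnormalised counts of reads for each gene. Per the submitters' processing notes, fastp and the build GRCm39 (mm39) were used. Aligner, counter, annotation, strandedness and fastp version: not given in the sources used here. All numeric columns belonged to a sample.

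Tests used edgeR 4.0.16 with R 4.3.3 (quasi-likelihood, robust, TMM factors, filterByExpr by group, 1 term per group over 12 libraries, 9 residual degrees of freedom), with Benjamini-Hochberg adjustment over 15742 genes. SEs are the log2 fold change over the square root of F. CPM values use the TMM factors. The 7 genes were chosen, and the lists set, with earlier results of these data known. The text names the 7 genes, Irx3, from each list some of the 3 genes with the smallest p in each comparison, and the 3 nearest patterns. Beyond that rule Cacna1i, Chdh, Gm26794, Myl7, Bmp10, Sln, Nppa, Kcna5 and Acta2 were named after their values were seen. Ratios use counts plus 0.5, and their two-sided exact permutation tests have 70 assignments. GC content and exon length came from GENCODE M21 (GRCm38), matched by symbol for 96.3% of tested genes, and the correction is a natural spline with 6 degrees of freedom entered as an offset per library. Alternatives were RLE and upper-quartile factors, DESeq2 1.42.0, 2 other filters, 2 groups only, mitochondrial genes removed, GC correction, replicate block, both, each library left out and replicate 4 of both infarcted groups left out. The steps were tested on simulated data. There, by comparison, 49% to 53.1% of genes changed 2-fold and 86.5% to 88.9% of genes changed 4-fold were called in the right direction. A gene that did not pass may therefore still have changed. No 2 libraries of a group were duplicates by chi-square. Intervals are not given, and counting error is part of the spread between libraries. Values of some list genes are not reported here.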

Additional observations from a re-analysis of the deposited data

Results flagged for a closer look

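Among 54 sets of 4 libraries checked for a value far from the other 3, of which chance would mark about 1 in 20, 4 values stood apart. Cacna1h was at 9.17 CPM in replicate 3 of the control-vector infarcted group, with a gap to the nearest library of 0.906 of the range. Cacna1d was at 10.8 CPM in replicate 4 of the same group (gap 0.84 of the range), and relative to sarcomere genes the same library was at -7.16 on the log2 scale (gap 0.847). Irx3 was at 20.5 CPM in replicate 4 of the sham group, below the other 3 (gap 0.947).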

How the results depend on the processing

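Over 23 alternatives and 3 comparisons the 7 genes gave 483 values, of which 456 kept their call, 27 changed it and 0 changed the sign of a called value. With GC correction Hcn2 (0.25) and Kcnj5 (0.06) with Irx3 vector and infarction over sham changed sign without passing the test in either form, as did, with Irx3 vector over control vector, Cacna1d without Irx3-vector replicate 1 (-0.011) and Hcn2 without replicate 4 of both infarcted groups (-0.09). With GC correction 4127 genes were called with Irx3 vector over control vector in place of 7760, and 2957 with the replicate block as well. The replicate numbers did not pair the libraries: residuals of libraries of the same number correlated at -0.599 to 0.177, the own number was best in 2 of 24 cases, with the replicate block Cacna1d after infarction lost its call (edgeR adjusted p = 0.0734, and 0.0644 with GC correction), and with the replicate block alone 6679, 6624 and 9077 genes were called in place of 7760, 7662 and 9904 (Irx3 vector over control vector, infarction over sham, Irx3 vector with infarction over sham). For ratios, GC correction left 0 of 9 exact permutation adjusted p under 0.05. The smallest was 0.051, with exact p still at 0.029. These were the values 0.74 and 0.93 for Cacna1h to Cacna1g, -1.31 for Hcn4 to Hcn2 after infarction with control vector, and 1.14 and 1.83 for Kcnj5 to Kcnj3. Hcn4 to Hcn2 with Irx3 vector over sham was -0.55 (exact permutation p = 0.057, adjusted p = 0.073). For Kcnj5 to Kcnj3 the difference between infarcted groups reversed to 0.69. Relative to sarcomere genes, GC correction brought past the threshold Cacna1g after infarction (0.45), Hcn2 with Irx3 vector over control vector (0.76) and Hcn4 with Irx3 vector over sham (0.53), and reversed Kcnj3 over sham to -0.89. With cardiomyocyte markers in place of sarcomere genes no difference passed. Those still at the smallest exact permutation p of 0.029 had adjusted p = 0.075. Irx3 vector over control vector was 0.71 for Cacna1g, 1.41 for Cacna1h, 0.49 for Hcn4, 1.07 for Kcnj3 and 0.85 for Kcnj5 and reversed to -0.21 for Cacna1d and -0.24 for Hcn2. Infarction over sham was 2.26 for Cacna1d, -0.60 for Hcn4 and -1.37 for Kcnj3. Irx3 vector over sham was 1.55 for Cacna1g, 2.46 for Cacna1h, 2.05 for Cacna1d, 0.56 for Hcn2 and 0.62 for Kcnj5, and reversed to -0.11 for Hcn4 and -0.31 for Kcnj3. GC correction reversed several list genes, not all of them named here. Among them were, with Irx3 vector over control vector, Cacnb1 (0.13, also 0.13 with the replicate block), Cacnb2 (-0.47), Cacnb4 (-0.33 and -0.35), Gnai3 (-0.48 and -0.49) and Tbx2 (0.20 and 0.18), and over sham Cacna2d1 (-0.50) and Gnb2 (0.062 and 0.059). The causes were not tested. Among the 7 genes Cacna1d had the fewest counts, 33 to 235 a library.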
